A study of Mus musculus with 16 samples.

Results

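Milk calcium is handled by a small set of genes, and 9 of them were taken from the RNA table of this series by name: the calcium pumps Atp2a2, Atp2b1, Atp2b2, Atp2c1 and Atp2c2, the calcium entry channel gene Orai1, its sensor Stim1, the extracellular calcium sensor Casr, and the hormone gene Pthlh. All 9 were found among the 24187 rows of the table. The values are messenger RNA levels in mammary tissue of mice on pregnancy day 13, from 3 Socs2-Δs (called mutant here) and 4 wild-type libraries. The Socs2-Δs mice were made by CRISPR/Cas9 genome editing, and the wild-type mice were C57BL/6 animals bought from a supplier, so origin and genotype cannot be told apart. Both groups carry the strain label C57BL/6, and no treatment, animal age or pooling is given in the sources used here. The RNA libraries of the mutant mice bear a wild-type genotype tag although their titles say Mut; titles decided the groups here. Nothing in the labels says that replicates were separate animals, so a p-value measures only the spread between these libraries.

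A secretory mammary cell takes calcium up from the blood side and moves most of it into the milk. Sarco/endoplasmic reticulum pumps of the Atp2a family fill the endoplasmic reticulum, secretory-pathway pumps of the Atp2c family load the Golgi, where calcium binds casein, and plasma-membrane pumps of the Atp2b family push calcium out of the cell. The calcium-sensing receptor reads blood calcium, and parathyroid hormone-related protein, made by the lactating gland, draws calcium from bone.

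Sequencing depth was alike, with 21.3 to 24.5 M (mega) reads per library as recovered from the steps between low values. On the leading principal component, which held 61.6% of the variance, mutant libraries ran from -37.7 to -29.6 and wild-type replicates 1 and 2 lay at -15.8 and -18.2, whereas wild-type replicates 3 and 4 lay far away at 57.1 and 77.9. In the same 2 libraries 7 of 10 salivary gland markers and 6 of 7 liver markers were higher than in all other libraries. The share of all genes with that pattern was not counted. The summed FPKM (reads per kilobase of gene, scaled per library) of 10 salivary gland markers was 56.7 to 64.3 in mutant libraries. It was 86.8 to 102 in wild-type replicates 1 and 2, 417 in wild-type replicate 3 and 241 in wild-type replicate 4. The exceptions in the salivary list were Bhlha15, Aqp5 and Smr2, and Bhlha15 measured 11.1 to 17.6 FPKM in mutant libraries, against 0.772 to 5.27 FPKM in wild-type libraries. The 7 liver markers summed to 43.0 to 193 FPKM in mutant libraries. They summed to 248 to 341 FPKM in wild-type replicates 1 and 2, 499 FPKM in wild-type replicate 3 and 2016 FPKM in wild-type replicate 4. The exception in the liver list was Cyp2e1, at 35.8, 95.7 and 187 FPKM in mutant replicates 1 to 3. In wild-type replicates 1 to 4 Cyp2e1 measured 238, 332, 298 and 79.25 FPKM. Cyp2e1 made up most of the liver sum in every library but wild-type replicate 4. The genes tested were therefore compared both with all 4 wild-type libraries and with wild-type replicates 1 and 2. Milk protein genes and luminal keratins were present in every library, with Krt8 at 260 to 392 FPKM in mutant and 161 to 378 FPKM in wild-type glands. Socs2 itself measured 13.9 to 17.1 FPKM in mutant glands and 16.1 to 25.6 FPKM in wild-type glands (log2 difference -0.46, SE 0.19, limma adjusted p = 0.267).

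Of the 9 genes, 7 had a mean of at least 1 FPKM and entered the test; Atp2b2 and Casr were below it. Atp2c2 differed most between the genotypes. It was higher in every mutant library than in any wild-type library. It rose when the comparison used wild-type replicates 1 and 2, and it missed the threshold with all 4 wild-type libraries. Atp2c1 and Orai1 had higher means, and Stim1, Pthlh and Atp2b1 lower means, in mutant glands, and none of these passed. With all 7 libraries 0 of the 7 tested genes passed (limma, Benjamini-Hochberg adjusted p under 0.05 over 13392 genes), where 0.0448% of all tested genes did; 3 of the 7 had an unadjusted p under 0.05, where 18.1% of all genes did. Against wild-type replicates 1 and 2, 1 of 7 passed, and it was higher, where 2.14% of all 13276 genes passed and 1.42% were higher; 4 of the 7 had an unadjusted p under 0.05, where 20.2% of all genes did. In that comparison the groups did not overlap in 4 of the 7 genes (40.2% of all genes), 3 of them higher (22.0%) and 1 lower (18.2%). The median log2 difference of the 7 genes was 0.22 with all libraries, where that of all genes tested was -0.0044, and -0.0025 against wild-type replicates 1 and 2, where that of all genes was 0.033.

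**Figure D1:**
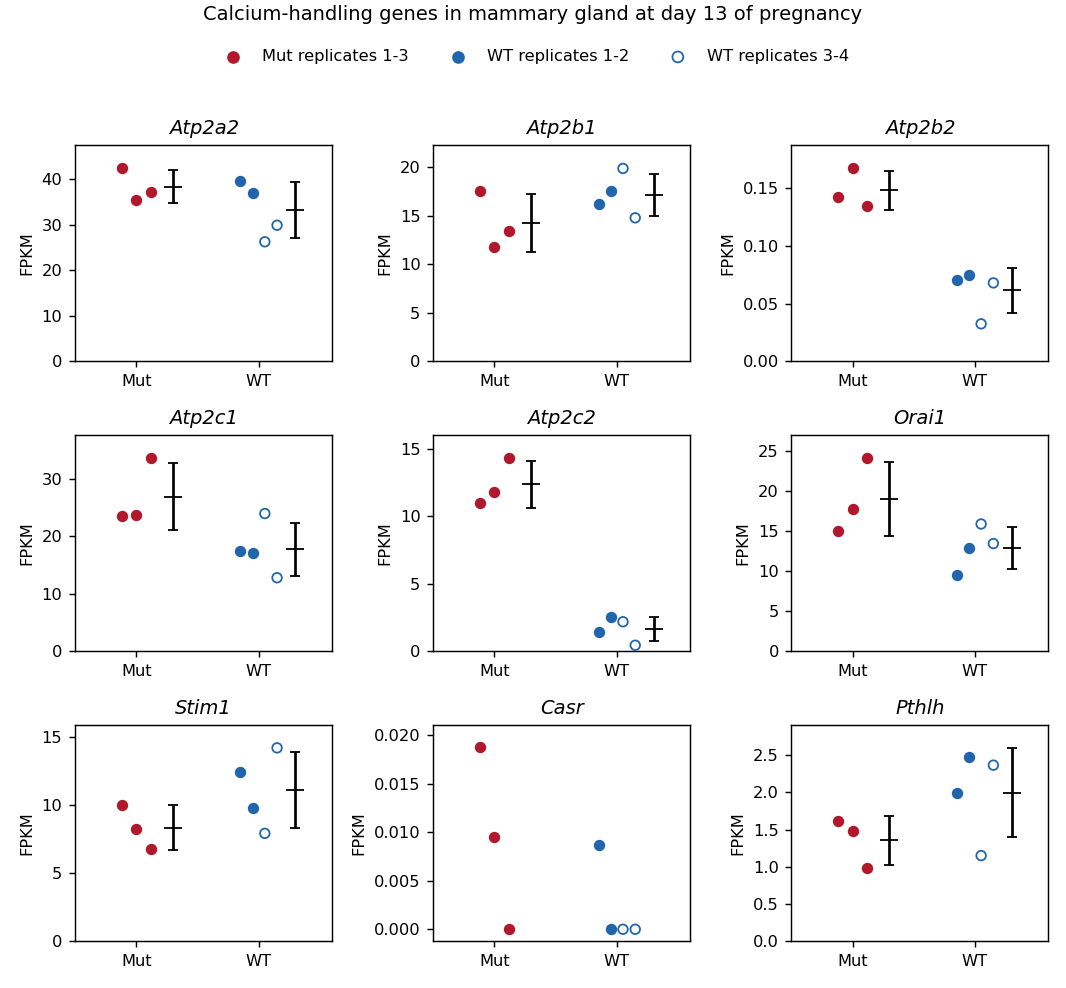
FPKM of the 9 genes in each library, with the mutant (Mut) libraries left of the wild-type (WT) ones and each axis scaled to its gene; bars are mean and SD (n = 3 and 4), and open points are wild-type replicates 3 and 4. Atp2c2 lies at 10.98 to 14.3 FPKM in mutant and 0.441 to 2.52 FPKM in wild-type libraries; Casr, with 0 to 2 reads per library, is drawn without bars.

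Atp2c2 encodes the secretory-pathway pump SPCA2, which in mouse tissues is found in secretory epithelia and is known to rise in the mammary gland towards lactation. It measured 10.98, 11.9 and 14.3 FPKM in mutant replicates 1 to 3, against 1.44, 2.52, 2.19 and 0.441 FPKM in wild-type replicates 1 to 4. The mutant libraries lay close together and all above the wild-type ones, among which replicate 4 was lowest. These values rested on 829 to 998 reads per mutant library and 29 to 195 reads per wild-type library. The means were 12.4 ± 1.74 FPKM in mutant and 1.65 ± 0.921 FPKM in wild-type glands (SD, n = 3 and 4), a ratio of 7.53. After 1 FPKM was added and log2 taken, a scale on which changes of low genes look smaller, Atp2c2 differed by 2.41 (SE 0.31, 95% interval 1.70 to 3.12). The limma adjusted p was 0.0679, so the gene did not pass with all 7 libraries. It ranked 9 by p among 13392 genes, and 19 genes, itself included, had a difference at least as large. The groups did not overlap, which held for 22.5% of all tested genes and, with the mutant libraries higher, for 12.5%. An exact permutation test, two-sided, gave p = 0.0286, the smallest that 35 possible label assignments allow. Against wild-type replicates 1 and 2, Atp2c2 rose by 2.19 on the log2 scale (SE 0.19, limma adjusted p = 0.0165), in 3 of 3 mutant libraries; 22 of 13276 genes (0.166%) had a difference that large. Without mutant replicate 1 or 2 the adjusted p of that comparison was 0.0617 or 0.0661, and without wild-type replicate 1 or 2 it was 0.118 or 0.0816, so that call rested on each of these libraries. Of the 7 fits that each left out a library from the full comparison, the one without wild-type replicate 4 passed (difference 2.14, adjusted p of 0.0270) and the other 6 had an adjusted p of 0.0718 to 0.396.

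Whole glands were sequenced, so a larger share of cells expressing a gene and more RNA per cell cannot be told apart. Levels of milk genes and cell-type markers stand beside Atp2c2 as follows. The summed FPKM of 8 alveolar milk genes, 5 caseins with Wap, Lalba and Glycam1, was 80408 to 107109 in mutant glands. In wild-type replicates 1 to 4 it was 10944, 16928.5, 45680 and 3994. All 8 genes were higher in every mutant library than in any wild-type library, as were 12.5% of all tested genes. The 8 luminal epithelial markers, such as Krt8 and Epcam, summed to 1374 to 2071 FPKM in mutant glands. In wild-type replicates 1 to 4 they summed to 1161, 1393, 1705 and 758 FPKM. Their mean log2(FPKM + 1) differed by 0.51 with all libraries (exact permutation p = 0.143, two-sided, n = 3 and 4). Set against that luminal mean within each library, a comparison chosen after the data were seen, Atp2c2 differed by 1.90 on the log2 scale (limma adjusted p = 0.0623, not past the threshold). The groups did not overlap (exact permutation p = 0.0286, two-sided, the smallest possible). With the mutant libraries higher, that held for 1.25% of all tested genes on this scale. Against wild-type replicates 1 and 2, Atp2c2 differed by 1.77 on this scale (limma adjusted p = 2.78e-06). In that comparison 107 of 13276 genes passed as higher and 1330 as lower. The exact permutation p was 0.1, two-sided, the smallest possible. This scaling shifts the median difference of all genes to -0.52 with all libraries and to -0.38 against wild-type replicates 1 and 2. The adipocyte markers, 7 genes, summed to 2768 to 4555 FPKM in mutant glands. They summed to 8064 to 8071 FPKM in wild-type replicates 1 and 2, 8987 in wild-type replicate 3 and 18663 in wild-type replicate 4. Of the 7, 4 were lower in every mutant library than in any wild-type library, as were 10.0% of all tested genes. The part of these cell-type differences in the level of Atp2c2 was not tested.

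Atp2c1 encodes SPCA1, the Golgi calcium and manganese pump found in most cells. It measured 23.5, 23.7 and 33.6 FPKM in mutant replicates 1 to 3, against 17.4, 17.1, 24.0 and 12.8 FPKM in wild-type replicates 1 to 4. Wild-type replicate 3 lay within the mutant range and the other 3 wild-type libraries lay below it. The log2 difference was 0.58 (SE 0.23, limma adjusted p = 0.255) with all libraries and 0.60 (SE 0.18, adjusted p = 0.143) against wild-type replicates 1 and 2. Relative to the luminal mean the difference of Atp2c1 was 0.07 with all libraries and 0.19 against wild-type replicates 1 and 2. On that scale the groups overlapped in both comparisons. In FPKM all mutant libraries lay above wild-type replicates 1 and 2, which held for 22.0% of all genes. The balance between both secretory-pathway pumps differed more than Atp2c1 itself. Atp2c2 made up 31.9, 33.3 and 29.9% of their joint FPKM in mutant replicates 1 to 3, against 7.64, 12.9, 8.35 and 3.33% in wild-type replicates 1 to 4. The log2 ratio of Atp2c2 to Atp2c1, each with 1 FPKM added, averaged -1.05 ± 0.12 in mutant and -2.88 ± 0.38 in wild-type glands (SD, n = 3 and 4), a difference of 1.83 (exact permutation p = 0.0286, two-sided, the smallest possible). Against wild-type replicates 1 and 2 this difference was 1.59, where 10 label assignments allow no p below 0.1 (exact permutation p = 0.1, two-sided). Library scaling cancels in such a ratio, apart from the added 1 FPKM.

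**Figure D2:**
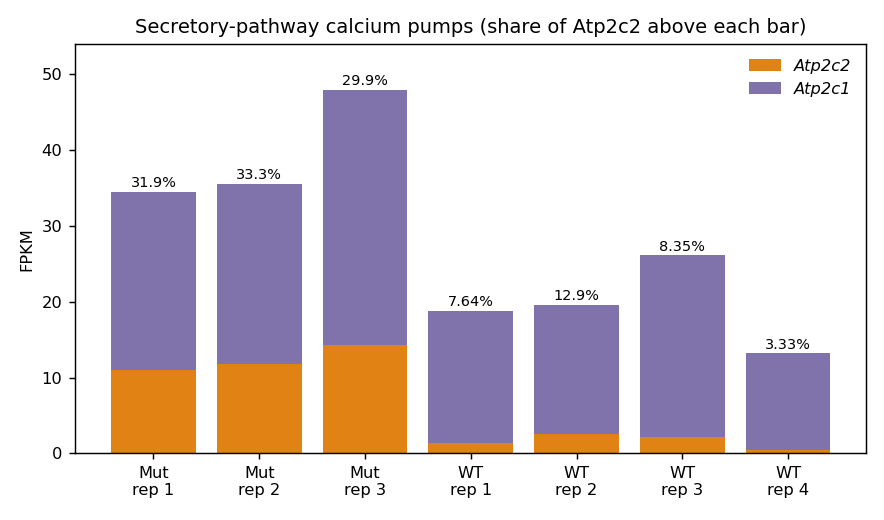
Stacked FPKM of Atp2c2 and Atp2c1 in each library, mutant (Mut) libraries left and wild-type (WT) libraries right, with the share of Atp2c2 in percent above each bar. The share is 29.9 to 33.3% in mutant and 3.33 to 12.9% in wild-type libraries.

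Atp2a2, which encodes SERCA2, the main pump of the endoplasmic reticulum outside fast muscle, was the most abundant of the 9 genes in both genotypes. It measured 42.4, 35.5 and 37.3 FPKM in mutant replicates 1 to 3, against 39.7, 37.1, 26.3 and 29.9 FPKM in wild-type replicates 1 to 4. Wild-type replicates 3 and 4 were lower than all other libraries, and wild-type replicates 1 and 2 lay within the mutant range. The log2 difference was 0.22 (SE 0.19, limma adjusted p = 0.516) with all libraries, and -0.0025 (SE 0.12, adjusted p = 0.995) against wild-type replicates 1 and 2. The 95% interval of the first ran from -0.22 to 0.65. The summed FPKM of the 9 pump genes of all 3 families was 106 to 120 in mutant and 88.4 to 114 in wild-type libraries, and these ranges overlapped. Within that sum Atp2c2 held 9.12, 10.7 and 13.5% in mutant replicates 1 to 3, against 1.26, 2.85, 2.02 and 0.407% in wild-type replicates 1 to 4.

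Atp2b1 encodes PMCA1, the plasma-membrane pump of most cells. It measured 17.5, 11.8 and 13.4 FPKM in mutant replicates 1 to 3, against 16.2, 17.6, 19.9 and 14.8 FPKM in wild-type replicates 1 to 4, and the groups overlapped. The log2 difference was -0.26 (SE 0.18, limma adjusted p = 0.431) with all libraries and -0.25 (SE 0.17, adjusted p = 0.488) against wild-type replicates 1 and 2. Relative to the luminal mean the log2 difference of Atp2b1 was -0.77 (limma adjusted p = 0.239), against a median of -0.52 over all genes. With all libraries the groups did not overlap on this scale. With the mutant libraries lower, that held for 26.9% of all tested genes. Atp2b1 supplied 70.1 to 80.3% of the FPKM of the 4 plasma-membrane pumps in mutant and 55.2 to 86.8% in wild-type glands.

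Atp2b2 encodes PMCA2, the pump of the apical membrane that carries calcium into mouse milk in lactation. At day 13 of pregnancy it was scarce, at 0.142, 0.167 and 0.135 FPKM in mutant replicates 1 to 3 and 0.0706, 0.0750, 0.0325 and 0.0679 FPKM in wild-type replicates 1 to 4. These levels rested on 24, 28 and 21 reads in the mutant libraries and 13, 13, 5 and 10 reads in the wild-type libraries. All mutant values lay above all wild-type values, and the mean was 0.148 ± 0.0169 FPKM in mutant and 0.0615 ± 0.0195 FPKM in wild-type glands (SD, n = 3 and 4), a ratio of 2.40. Among rows above 0 whose mean was under 1 FPKM, 4.48% lay higher in all mutant libraries. The exact permutation test, two-sided, gave p = 0.0286, the smallest possible, and in the fit with no minimum level the limma adjusted p was 0.193. Its share of the plasma-membrane pumps stayed below 1% in every library, at 0.645 to 0.989% in mutant and 0.142 to 0.309% in wild-type glands. The log2 ratio of Atp2b2 to Atp2b1, each with 1 FPKM added, differed by 0.37 (exact permutation p = 0.143, two-sided, n = 3 and 4); with 0.1 FPKM added, which hides less of so low a gene, it differed by 0.90 (exact permutation p = 0.0286).

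Orai1 encodes the pore of store-operated calcium entry in the plasma membrane. In human breast cancer cells SPCA2 is known to bind Orai1 and to let calcium in without emptying of the stores. Orai1 measured 15.0, 17.8 and 24.1 FPKM in mutant replicates 1 to 3, against 9.46, 12.9, 15.9 and 13.4 FPKM in wild-type replicates 1 to 4. Mutant replicate 1 lay below wild-type replicate 3, and the other mutant libraries lay above every wild-type library. The log2 difference was 0.52 (SE 0.22, 95% interval 0.01 to 1.03, limma adjusted p = 0.273) with all libraries and 0.70 (SE 0.22, adjusted p = 0.162) against wild-type replicates 1 and 2. Relative to the luminal mean the difference of Orai1 was 0.01 with all libraries and 0.29 against wild-type replicates 1 and 2. On that scale the groups overlapped in both comparisons. In FPKM all mutant libraries lay above wild-type replicates 1 and 2, which held for 22.0% of all genes.

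Stim1 encodes the calcium sensor of the endoplasmic reticulum that opens Orai1 when stores empty. It measured 10.0, 8.21 and 6.78 FPKM in mutant replicates 1 to 3, against 12.4, 9.78, 7.92 and 14.2 FPKM in wild-type replicates 1 to 4. The groups overlapped, with wild-type replicates 2 and 3 inside the mutant range. The log2 difference was -0.36 (SE 0.22, limma adjusted p = 0.384) with all libraries and -0.38 (SE 0.18, adjusted p = 0.318) against wild-type replicates 1 and 2. Orai1 and Stim1 thus had means on opposite sides of wild type, neither past the threshold. The FPKM ratio of Orai1 to Stim1, looked at after these values were seen and not tested, was 1.50, 2.16 and 3.55 in mutant replicates 1 to 3, against 0.760, 1.32, 2.0 and 0.944 in wild-type replicates 1 to 4.

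The series title names STAT5, so the windows of 250 bases before to 50 after each gene's start (RefSeq, GRCm38.p6) were searched for TTCNNNGAA, the core motif that STAT5 binds. It reads the same on both strands. It was in 8.30% of 32851 windows and in 1 of the 11 windows found for 7 of the 9 genes, that of Orai1; Atp2a2 and Atp2c2 had no window. The bases upstream of Orai1 are shown because they hold the only match, from 207 to 199 bases before the start (chr5:123014824-123015073, plus strand, motif in capitals).
Orai1: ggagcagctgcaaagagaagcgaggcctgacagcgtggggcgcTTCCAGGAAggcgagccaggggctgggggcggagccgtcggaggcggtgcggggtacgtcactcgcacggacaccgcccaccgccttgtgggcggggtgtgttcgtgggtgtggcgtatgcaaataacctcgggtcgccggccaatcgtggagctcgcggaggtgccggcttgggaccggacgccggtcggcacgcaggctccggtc
The match is a description of these letters and does not show binding.

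Pthlh encodes parathyroid hormone-related protein, which guides the embryonic mammary bud and in lactation mobilises bone calcium. It was low at this stage, with 1.61, 1.48 and 0.980 FPKM in mutant replicates 1 to 3 and 2.0, 2.48, 1.15 and 2.37 FPKM in wild-type replicates 1 to 4. Wild-type replicate 3 lay within the mutant range and the other 3 wild-type libraries above it. These values stood for 32 to 57 reads per mutant library and 37 to 90 reads per wild-type library. The log2 difference was -0.33 (SE 0.23, limma adjusted p = 0.416), and -0.46 (SE 0.18, adjusted p = 0.227) against wild-type replicates 1 and 2. Casr, the calcium-sensing receptor that in lactating mouse gland restrains Pthlh when calcium is ample, was barely detected. It had 2, 1 and 0 reads in mutant replicates 1 to 3, against 1, 0, 0 and 0 reads in wild-type replicates 1 to 4. With 3 reads allowed by a count of 0, a genotype difference of Casr was not detectable at this depth.

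**Figure D3:**
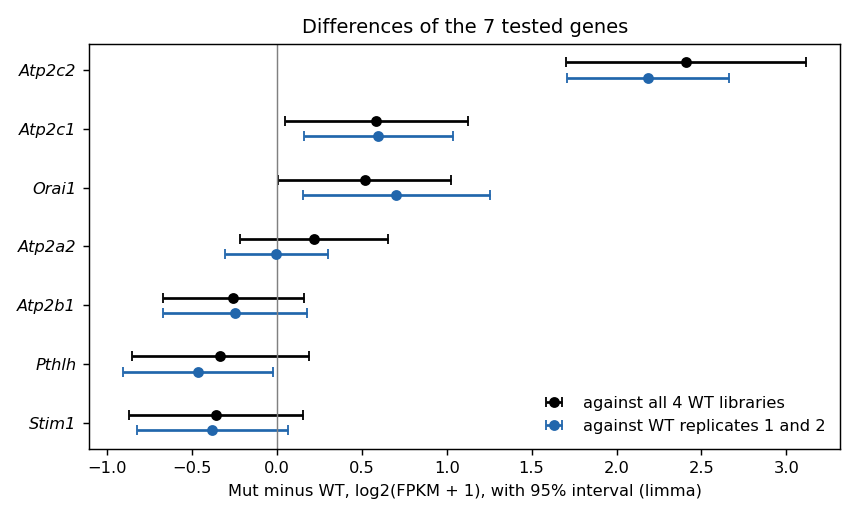
Mutant minus wild-type difference of log2(FPKM + 1) for the 7 tested genes, with 95% intervals from limma, against all 4 wild-type libraries (black) and against wild-type replicates 1 and 2 (blue). Atp2c2 stands at 2.41 and 2.19, and the other 6 genes lie between -0.46 and 0.70.

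The order of mean levels among the genes, in FPKM, had Atp2c2 2 places higher in mutant than in wild-type glands, and Orai1 and Atp2b1 changed places. In mutant glands it ran Atp2a2, Atp2c1, Orai1, Atp2b1, Atp2c2, Stim1, Pthlh, Atp2b2, Casr. In wild-type glands it ran Atp2a2, Atp2c1, Atp2b1, Orai1, Stim1, Pthlh, Atp2c2, Atp2b2, Casr. In mutant glands the ranges of Atp2c1 and Orai1, of Orai1 and Atp2b1, and of Atp2b1 and Atp2c2 overlapped, although Atp2c1 was above Orai1 in 3 of 3 libraries. In wild-type glands the ranges overlapped for Atp2c1 and Atp2b1, Atp2b1 and Orai1, Orai1 and Stim1, and Pthlh and Atp2c2, although Atp2b1 was above Orai1 in 4 of 4 libraries. The other overlapping neighbours changed order between libraries of a group, so they did not differ beyond their spread. Atp2a2 was above every other gene, and Casr below every other gene, in all 7 libraries.

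Atp2c2 was the only tested gene of the 9 whose log2(FPKM + 1) had an SD of at least 0.5 over the 7 libraries, and the genes with the most similar profile were sought for it. Likeness was the root-mean-square distance between profiles centred on each gene's mean, over 7 libraries, and its median over all tested genes was 1.28. The closest was Apln, which encodes the peptide hormone apelin, at a distance of 0.20. Next came Trf, the iron carrier transferrin, which is secreted into mouse milk, at 0.27, Ccdc64b at 0.29, Slc34a2, a sodium-phosphate cotransporter of epithelial apical membranes, at 0.29, and AI463170 at 0.30. Apln measured 36.6, 41.4 and 55.8 FPKM in mutant replicates 1 to 3, against 5.91, 10.5, 13.4 and 4.33 FPKM in wild-type replicates 1 to 4. Slc34a2 measured 14.5, 15.9 and 12.9 FPKM in mutant replicates 1 to 3, against 2.94, 3.01, 4.52 and 0.717 FPKM in wild-type replicates 1 to 4. All 5 genes were high in the 3 mutant libraries and lowest in wild-type replicate 4, and being chosen for this pattern they carry no test here.

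**Figure D4:**
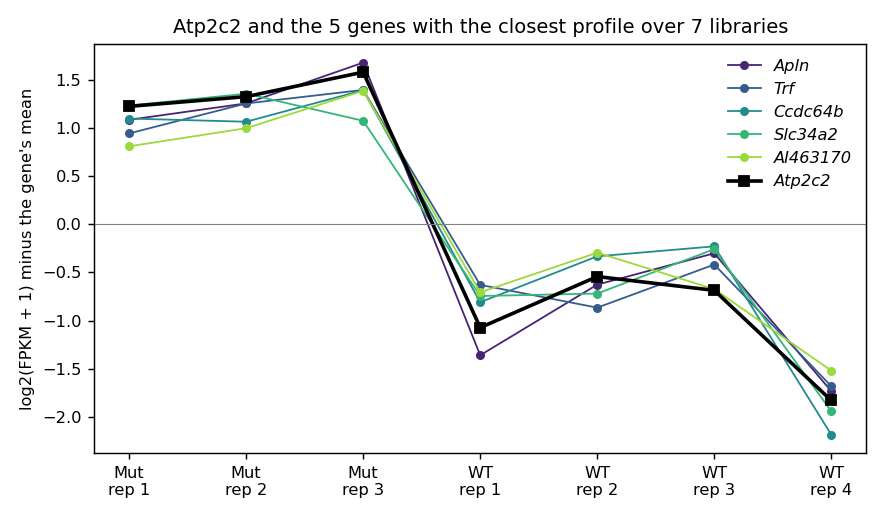
Log2(FPKM + 1) minus each gene's mean over 7 libraries, for Atp2c2 (black squares) and the 5 genes closest to it, with mutant (Mut) libraries left and wild-type (WT) libraries right; lines only join the points of a gene. All 6 genes are above their mean in the 3 mutant libraries and lowest in wild-type replicate 4.

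Other calcium-handling genes showed no general rise with Atp2c2. Of 99 genes on 8 lists, 96 were found and 65 were tested. With all 7 libraries 0 rose and 0 fell, where 0.0448% of all tested genes passed. The median log2 difference of the 65 genes was -0.30, with 22 higher and 43 lower, where the median of all genes was -0.0044. The groups did not overlap in 5 genes that were higher (7.69%, against 12.5% of all tested genes) and in 17 that were lower (26.2%, against 10.0%). Against wild-type replicates 1 and 2 the median was -0.04, where that of all genes was 0.033. In that comparison 1.42% of all 13276 genes rose and 2.14% passed in either direction. Of the genes on the lists, 1 rose and 0 fell.

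That gene was Vdr, the vitamin D receptor, which in gut and kidney drives calcium absorption genes. Vdr measured 46.3, 46.8 and 38.9 FPKM in mutant replicates 1 to 3, against 14.9, 19.0, 14.2 and 4.85 FPKM in wild-type replicates 1 to 4. The groups did not overlap, and wild-type replicate 4 was lowest, as for Atp2c2. The log2 difference of Vdr was 1.33 (SE 0.15, limma adjusted p = 0.0255) against wild-type replicates 1 and 2 and 1.79 (SE 0.39, adjusted p = 0.137) with all libraries. Without mutant replicate 1 or 2 the first was 1.29 in both fits (adjusted p 0.0797 and 0.0920), and without wild-type replicate 1 or 2 it was 1.17 and 1.50 (adjusted p 0.186 and 0.0916). With no minimum level its adjusted p was 0.0598. On the same list of 9 tested genes, Pth1r, the receptor of parathyroid hormone-related protein, measured 6.58 ± 0.962 FPKM in mutant and 12.8 ± 3.27 FPKM in wild-type glands (SD, n = 3 and 4; log2 difference -0.84, adjusted p = 0.160; -0.54 against wild-type replicates 1 and 2). Gnaq, a G-protein subunit used by the calcium-sensing receptor, differed by 0.19 (limma adjusted p = 0.482), and by 0.24 against wild-type replicates 1 and 2.

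Of the other pumps, Atp2b4, which encodes PMCA4, measured 4.09 ± 0.880 FPKM in mutant and 7.98 ± 4.01 FPKM in wild-type glands (SD, n = 3 and 4). Its log2 difference was -0.70 (limma adjusted p = 0.349), and -0.89 (adjusted p = 0.107) against wild-type replicates 1 and 2. All mutant libraries lay below those 2, as in 18.2% of all genes, and above wild-type replicate 3, at 2.98 FPKM. Atp2a1, the pump of fast skeletal muscle, ran from 0.632 to 17.2 FPKM in mutant and from 0.520 to 29.4 FPKM in wild-type libraries. It was highest where 8 skeletal muscle markers were highest, in wild-type replicate 3, and its log2 difference was -0.55 with all libraries and 0.30 against wild-type replicates 1 and 2. The summed muscle FPKM was 41.7 to 165 in mutant libraries and 985 in that library. In wild-type replicates 1, 2 and 4 it was 238, 40.9 and 188.5. Atp2a3, which encodes SERCA3, a pump of blood cells and some epithelia, measured 7.74 ± 6.41 FPKM in mutant and 12.9 ± 11.9 FPKM in wild-type glands (SD, n = 3 and 4), with a spread near the mean in both.

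Among 8 tested entry channel genes was Cracr2b, a calcium-binding relative of the regulator of Orai1. It measured 144 ± 35.8 FPKM in mutant and 78.6 ± 24.8 FPKM in wild-type glands (SD, n = 3 and 4), and its groups did not overlap. Its log2 difference was 0.91 (limma adjusted p = 0.225), and 0.62 (adjusted p = 0.209) against wild-type replicates 1 and 2. Trpm7, a channel kinase passing calcium and magnesium, differed by 0.31, and by 0.19 against wild-type replicates 1 and 2. Saraf, which damps store-operated entry, differed by -0.31, and by 0.036 against wild-type replicates 1 and 2. Orai3 and Stim2, the paralogues of Orai1 and Stim1, differed by -0.0050 and 0.15, and by 0.18 and 0.20 against wild-type replicates 1 and 2. Trpv5 and Trpv6, the calcium channels of kidney and gut, were under the minimum, Trpv5 with 0.0189 FPKM in wild-type replicate 4 and 0 elsewhere. Trpv6 was detected in every library, at 0.817, 0.470 and 0.348 FPKM in mutant replicates 1 to 3. In wild-type replicates 1 to 4 Trpv6 measured 1.47, 1.34, 0.273 and 0.988 FPKM.

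In the secretory pathway, 13 genes of calcium-binding proteins had a median log2 difference of -0.36, and of -0.13 against wild-type replicates 1 and 2. Nucb2, a Golgi calcium-binding protein and the precursor of nesfatin, measured 43.8 ± 5.51 FPKM in mutant and 26.1 ± 8.26 FPKM in wild-type glands (SD, n = 3 and 4). Its log2 difference was 0.77 (limma adjusted p = 0.209), and 0.80 (adjusted p = 0.0637) against wild-type replicates 1 and 2. The reticulocalbins Rcn1 and Rcn2 of the endoplasmic reticulum differed the other way, by -0.71 (limma adjusted p = 0.167) and -0.60 (adjusted p = 0.199). Against wild-type replicates 1 and 2 Rcn1 and Rcn2 differed by -0.57 and -0.38. Calr, the calreticulin that buffers calcium in the endoplasmic reticulum, was level at 313 ± 1.35 FPKM in mutant and 314 ± 33.1 FPKM in wild-type glands. Of these 13 genes, 1 was higher and 6 were lower in mutant glands without overlap, where 12.5% and 10.0% of all tested genes were.

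The 10 tested cytosolic calcium-binding proteins were lower in mean in mutant glands, with a median log2 difference of -0.83, and 6 did not overlap, where 10.0% of all genes were lower without overlap. With wild-type replicates 3 and 4 left out the median became -0.28, and there Calm2, S100a1 and Pvalb had differences of 0.14, 0.14 and 0.087. Anxa2, an annexin that binds membranes, measured 152 ± 16.5 FPKM in mutant and 420 ± 230 FPKM in wild-type glands (SD, n = 3 and 4; log2 difference -1.34, limma adjusted p = 0.171), and its partner S100a10 measured 148 ± 7.31 FPKM in mutant and 386 ± 155 FPKM in wild-type glands (-1.28, adjusted p = 0.165). S100a6 differed by -1.32 (adjusted p = 0.191). The differences of Anxa2, S100a10 and S100a6 were -0.90, -0.78 and -0.70 against wild-type replicates 1 and 2. The 4 macrophage markers found of 5 summed to 47.8 to 65.9 FPKM in mutant and 75.0 to 112 FPKM in wild-type libraries, without overlap. The 5 fibroblast markers summed to 1190 to 1702 FPKM in mutant and 1631 to 2179 FPKM in wild-type libraries, and the 5 endothelial markers to 76.8 to 96.8 FPKM in mutant and 77.1 to 109 FPKM in wild-type libraries, both with overlap. Their part in these values was not tested.

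Of 12 tested genes of calcium release and mitochondrial uptake, Ccdc109b, a pore subunit that restrains mitochondrial uptake, measured 2.36 ± 0.297 FPKM in mutant and 7.40 ± 3.96 FPKM in wild-type glands (SD, n = 3 and 4; log2 difference -1.20, limma adjusted p = 0.179). Mcur1, a regulator of that uptake, differed by -0.56, and Itpr3, a release channel of the endoplasmic reticulum found in secretory cells, by 0.78 (adjusted p = 0.286). Ccdc109b, Mcur1 and Itpr3 differed by -0.63, -0.25 and 0.28 against wild-type replicates 1 and 2. Of the 2 tested exchangers, Slc8b1, which carries calcium out of mitochondria, differed by 0.48 and Slc24a3 by -0.38, and by 0.27 and -0.04 against wild-type replicates 1 and 2. Among 8 regulators of pumps was Slc9a3r1, a scaffold that holds PMCA2 at the apical membrane of mouse mammary cells. It measured 86.6 ± 12.9 FPKM in mutant and 58.8 ± 13.2 FPKM in wild-type glands (SD, n = 3 and 4). Its log2 difference was 0.57 (limma adjusted p = 0.252), and 0.40 (adjusted p = 0.312) against wild-type replicates 1 and 2. Nptn, the neuroplastin bound to plasma-membrane pumps, differed by -0.47 and the kinase gene Camk2d by -0.38, and by -0.26 and -0.14 against wild-type replicates 1 and 2.

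**Figure D5:**
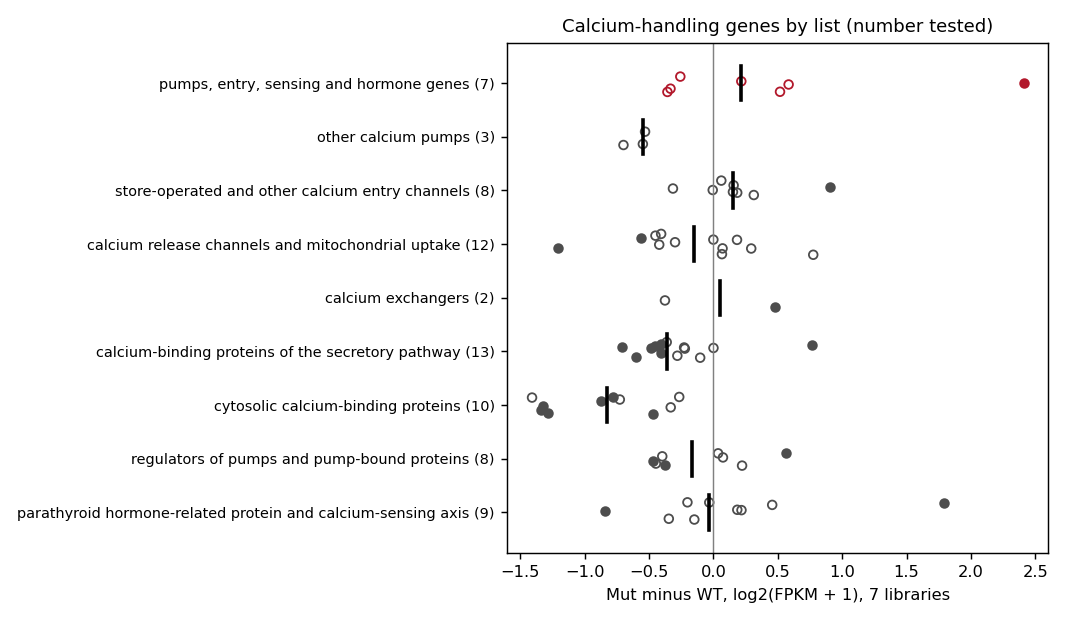
Mutant minus wild-type difference of log2(FPKM + 1), 7 libraries, for the tested calcium-handling genes by list, with the number tested in parentheses; filled points are genes whose groups do not overlap and black bars are medians. Atp2c2, at 2.41, and Vdr, at 1.79, are the points farthest to the right.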

How the data were processed

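The authors deposited FPKM per gene for 7 RNA libraries, with no read counts and no strand use given, so overlapping and antisense genes may share reads. Poly(A) RNA was sequenced, per the labels' protocols. Tools listed in the submitters' processing notes are CASAVA, DESeq2, STAR and Bowtie2, with no version or role, and the build is mm9. The other 9 samples, of chromatin, were not analysed here.

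Reads were recovered for all 21044 rows above 0 as whole multiples of a step (tolerance 0.02 of a read), up to a factor common to a gene's libraries; they give depth only. Limma 3.58.1 in R 4.3.3 (trend) was fitted to log2(FPKM + 1) of the genes whose mean reached 1 FPKM, with p adjusted by Benjamini and Hochberg over all of them, and was tested on simulated data. Exact permutation tests used the absolute difference of means. The limit of 3 reads covers counting error only, and limma's intervals cover the spread between libraries. Lists were described by counts and medians, and up to 3 genes of smallest p per list were named; Orai3, Stim2, Calr, Trpv5 and Trpv6 were added by choice. The members, lists, tests and the comparison with wild-type replicates 1 and 2 were chosen with earlier results of these data known. Alternatives were another pseudocount, no minimum, other scalings, a replicate block, a term for wild-type replicates 3 and 4, each library left out and, added after seeing the data, scaling to luminal markers.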

Additional observations from a re-analysis of the deposited data

Results flagged for a closer look

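Among the 4 wild-type libraries, 2 values lay far from the rest by Dixon's test, which flags about 1 in 20 groups by chance. Atp2b2 was low in wild-type replicate 3, at 0.0325 FPKM or 5 reads. Casr was at 0.00865 FPKM in wild-type replicate 1, which is 1 read, and at 0 in the other wild-type libraries.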

How the results depend on the processing

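The number of genes called with 7 libraries moved from 6 to 1 with a pseudocount of 0.1, 1 with no minimum level, 26 with quantile normalization, 0 once wild-type replicates 3 and 4 had their own term, and 0 to 31 when a library was left out (31 without wild-type replicate 4, 17 without wild-type replicate 3); against wild-type replicates 1 and 2 it moved from 284 to 25 with no minimum and 0 to 66 when a library was left out. Deviations of same-numbered mutant and wild-type libraries correlated at 0.35, -0.10 and 0.28 for replicates 1 to 3. Pairs with different numbers ran from -0.20 to 0.34, so whether shared numbers pair the libraries was not settled. With a replicate block 0 genes were called with 7 libraries and 319 against wild-type replicates 1 and 2. Atp2c2 stayed higher under all alternatives run. With 7 libraries it passed with quantile normalization (2.37, limma adjusted p = 0.0454), did not with the replicate block (2.14, adjusted p = 0.145), and ranged from 2.14 to 2.57 with a library left out. Against wild-type replicates 1 and 2 it was 1.92 to 2.45 with a library left out and did not pass with no minimum (2.19, adjusted p = 0.0517); a lone wild-type library is there assumed to vary like the mutant ones. The log2 ratio of Atp2c2 to Atp2c1 differed by 1.70 to 2.0 with a library left out and by 1.59 without wild-type replicates 3 and 4, where fewer splits allow no p under 0.05; the ratio of Atp2b2 to Atp2b1 differed by 0.90 with a pseudocount of 0.1. Atp2a2 turned sign: with 7 libraries it was -0.30 relative to luminal markers and -0.0025 with the term for wild-type replicates 3 and 4, and against wild-type replicates 1 and 2 it was 0.016 with the replicate block and -0.074 to 0.051 with a library left out. Atp2a1 was 0.30 with that term and -1.42 to 0.44 with a library left out, and Saraf 0.036 with that term. The cause was not tested. Relative to luminal markers the differences of Atp2c1 and Orai1 were 0.07 and 0.01 with 7 libraries, and the median of all genes was -0.52. Against wild-type replicates 1 and 2 those differences were 0.19 and 0.29, and that median was -0.38. Vdr passed with 7 libraries without wild-type replicate 4 alone (1.41, adjusted p = 0.0456). Depth limits Casr, Atp2b2 and Pthlh most.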
